A study of Mus musculus with 69 samples.

Results

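The hypothalamus of young females homozygous for a miR-200-resistant Zeb1 allele (200M) was compared with that of wild-type (WT) females, using every gene counted in 4 libraries of each genotype. These 8 libraries are part of 69 from pituitary, hypothalamus and ovary of the same study. The mice were virgin females on the C57BL/6J background, 8–12 weeks old and staged to proestrus, the phase of the estrous cycle that precedes ovulation. WT mice carry 2 unedited copies of Zeb1. In 200M mice both copies carry point mutations in the 3′ untranslated region (UTR) that remove the binding sites for miR-200a and miR-200b, and in heterozygous 200H mice 1 copy does. The knock-in is constitutive, so every cell of the mouse carries it. The mice descended from 2 embryonic stem cell clones, and which clone each animal came from is not given in the labels. Whole tissue was ground, so every value is an average over all cell types of the dissected block.

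ZEB1 is a zinc-finger transcription factor that represses epithelial genes. It also represses the loci that encode the miR-200 microRNAs, and these microRNAs in turn lower Zeb1 mRNA, so each holds the other down. In the hypothalamus, neurons that release gonadotropin-releasing hormone (GnRH) drive the pituitary gonadotropes, and neurons making kisspeptin and neurokinin B relay estrogen feedback onto them. The comparison asks whether losing miR-200 control of Zeb1 altered gene expression upstream of the pituitary.

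The microRNAs whose sites were mutated are shown because the seed, bases 2 to 8 and in capitals, decides which mRNAs they pair with. They fall into 2 seed groups that differ at 1 seed base. Sequences and positions are from RefSeq on GRCm38.
mmu-miR-200a-3p: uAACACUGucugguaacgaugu
mmu-miR-141-3p: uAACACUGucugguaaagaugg
mmu-miR-200b-3p: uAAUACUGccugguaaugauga
mmu-miR-200c-3p: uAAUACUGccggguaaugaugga
mmu-miR-429-3p: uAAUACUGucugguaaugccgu
The genes of miR-200a, miR-200b and miR-429 lie together on chromosome 4, and those of miR-141 and miR-200c on chromosome 6. The 8-base site that matches the miR-200b seed group in an mRNA is CAGTATTA, and the site for the miR-200a group is CAGTGTTA.

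The 8 libraries held 3460427 to 5143128 counted reads over 55401 genes. The quasi-likelihood test used 14988 genes with enough counts. Levels are given as CPM, counts scaled to a common library total, with TMM factors over the 12 young hypothalamus libraries. On the first principal component (26.6% of the variance) 200M replicate 1 stood apart at -20.8, against -2.52 to 13.1 for the other 7 libraries. Its root mean square deviation from its group mean was the highest of the 8 at 0.231 on the log2 scale. On the second component (22.2%) 200M replicate 4 was farthest out at -17.6. There 200M replicate 1 lay at -10.6 and the remaining libraries at 1.09 to 7.84. The deviation of 200M replicate 4 was the next highest at 0.201. The biological coefficient of variation was 0.0593 among WT libraries, 0.118 among 200M libraries and 0.0987 among 200M libraries without replicate 1. Values without 200M replicate 1 are given beside the results it bears on most. Counts of calls with each library left out are given near the end.

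No rise of Zeb1 mRNA was measured in the 200M hypothalamus. Zeb1 (ENSMUSG00000024238, chr18:5591860-5775467, plus strand of GRCm38) stood at 222, 220.0, 227 and 223 CPM in WT replicates 1 to 4 and at 209, 212, 196 and 179 CPM in 200M replicates 1 to 4. Every 200M library lay below every WT library. The difference, -0.17 on the log2 scale (SE 0.07, 95% interval -0.32 to -0.02), did not pass the test at an adjusted p of 0.871. Across all genes tested, every 200M library lay below every WT library for 230 genes (1.53%). As a fold of WT the 95% interval of Zeb1 ran from 0.803 to 0.986, not adjusted for the number of genes, and thus held no rise.

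The same allele gave another result in the pituitary of the same cohort. There Zeb1 rose by 0.52 on the log2 scale (SE 0.06, adjusted p = 2.39e-05), from a mean of 93.3 CPM in 3 WT libraries to 137 CPM in 4 200M libraries. The pituitary change was larger than the hypothalamic one by 0.69 on the log2 scale (SE 0.09, adjusted p of the tissue-by-genotype term = 9.00e-06). In the hypothalamus of older females aged 28–36 weeks, which had been through a breeding trial, Zeb1 differed by -0.26 on the log2 scale (SE 0.09, adjusted p = 0.161). In 200H hypothalamus of the young cohort Zeb1 ranged from 192 to 232 CPM, overlapping both groups.

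Zeb2 is the paralog of Zeb1 and also carries miR-200 sites, which are unedited in these mice. Its CPM values were 254, 228, 222 and 226 in WT and 173, 212, 224 and 193 in 200M, and the groups overlapped by 1 library. The difference of -0.22 on the log2 scale (SE 0.08) had an adjusted p of 0.811.

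The transcripts that host the microRNAs of the loop were almost not read in this tissue. Gm13648 and Gm15884, the transcripts annotated across the miR-200 loci, had 2 counts each over the 8 libraries, all in WT libraries. Neither could be tested. In the WT pituitary of the same cohort they averaged 15.4 and 2.18 CPM. The study sequenced small RNA from pituitary, and the microRNAs themselves were not measured in the hypothalamus. Defining epithelial genes were also near 0: Epcam, an adhesion protein, had 0 to 1.71 CPM in WT and 0 to 1.11 CPM in 200M, while the splicing factor Esrp1 and the small GTPase Rab25 had at most 0.428 and 1.33 CPM in any of the 8 libraries. In the pituitary Epcam fell by 3.29 and Esrp1 by 3.88 on the log2 scale. Of 42 epithelial genes, 11 had enough counts to be tested in the hypothalamus and none was called, by edgeR, DESeq2 or limma voom, and none had an unadjusted p under 0.05. Cdh1, which encodes E-cadherin, averaged 12.6 CPM in WT and 11.3 CPM in 200M (log2 fold change -0.14, SE 0.30). Of 26 mesenchymal genes, 21 were tested and none was called by edgeR. Vim, the intermediate filament vimentin, averaged 26.6 and 30.5 CPM (log2 fold change 0.20, SE 0.14). The mesenchymal list had 4 genes (19.0% of those tested, against 5.65% of all genes) at an unadjusted p under 0.05, all higher in 200M: Sparc, Col6a1, Pdgfra and Col1a1, with log2 fold changes of 0.13, 0.43, 0.21 and 0.41. Pdgfra also marks oligodendrocyte precursors and Col1a1 the meninges. The other 5 markers of the meninges, a collagen-rich tissue, summed to 344 to 398 CPM in WT and 134 to 645 CPM in 200M with 200M replicate 1 the highest, and their part in these values was not tested.

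**Figure D1:**
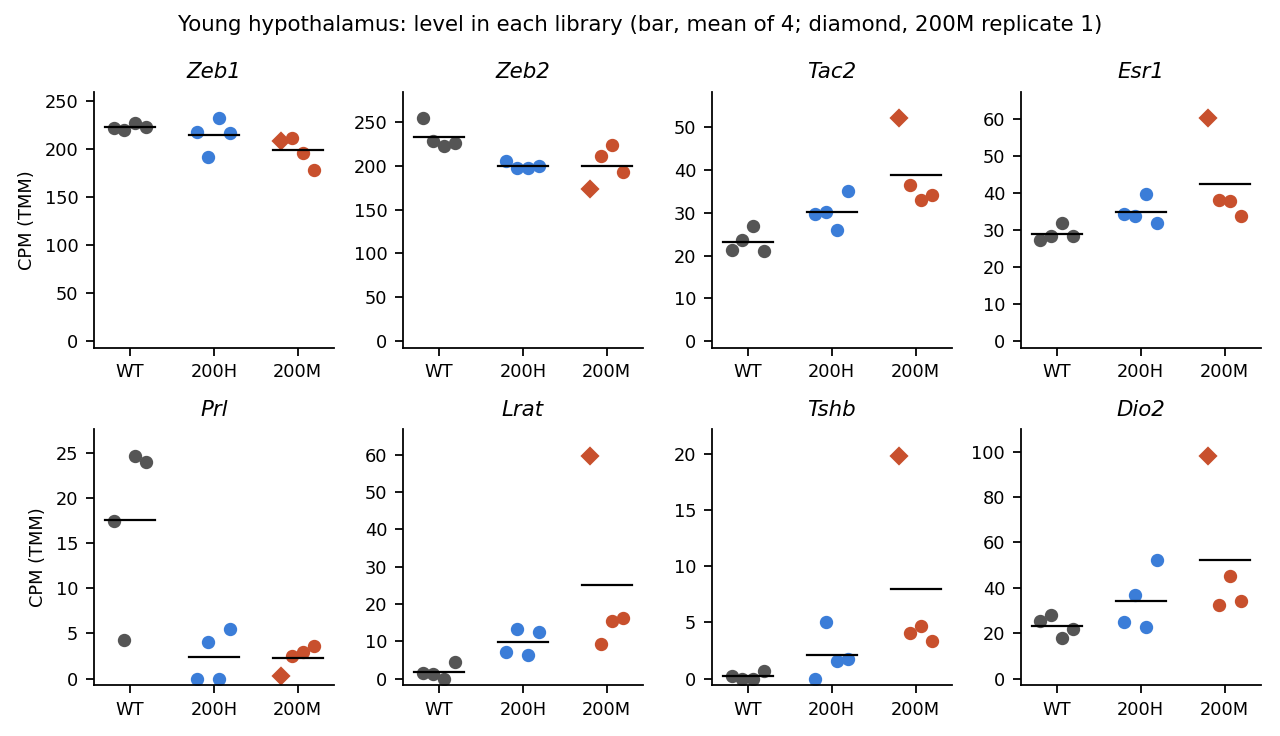
CPM of 8 genes in each library of the young hypothalamus, by genotype (4 libraries each; bar, group mean; diamond, 200M replicate 1). The Zeb1 values of all 4 200M libraries sat below the WT values, and for Lrat, Tshb, Dio2, Tac2 and Esr1 all 4 200M libraries sat above them.

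Only 3 of 14988 genes (0.02%) passed an adjusted p of 0.05: Prl was lowered (1 gene, 0.00667%), and Lrat and Tshb were raised (2 genes, 0.0133%). An unadjusted p under 0.05 was reached by 847 genes (5.65%), 452 of them (3.02% of all tested) higher and 395 (2.64%) lower in 200M. DESeq2 called 0 genes, with 654 of 32313 (2.02%) at an unadjusted p under 0.05, and limma voom called Tshb alone (0.00667%), with 913 genes (6.09%) below that unadjusted level. All 3 genes had low counts, with means of 41.3, 52.6 and 15.6 over the 8 libraries.

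Prl (ENSMUSG00000021342, chr13:27057570-27065205, plus strand) encodes prolactin, the hormone of pituitary lactotropes. Its CPM values were 17.5, 4.25, 24.6 and 24.0 in WT and 0.279, 2.54, 2.92 and 3.56 in 200M. The highest 200M library was below the lowest WT library, WT replicate 2. Prl fell by 2.87 on the log2 scale (SE 0.47, adjusted p = 0.00605), and by 2.54 (SE 0.40) without 200M replicate 1. The call was lost without WT replicate 1 (adjusted p = 0.0681) or WT replicate 3 (0.0719), and in the fit of all 12 young hypothalamus libraries (0.0510). In the 4 200H libraries Prl was 0 to 5.52 CPM. The 200H comparison shares the WT libraries; it called 3 of 14877 genes (0.0202%), among them Prl (log2 fold change -2.87) and Lrat (2.33).

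Lrat (ENSMUSG00000028003, chr3:82892579-82903973, minus strand) encodes lecithin retinol acyltransferase, which stores retinol as esters. WT libraries had 1.59, 1.33, 0 and 4.49 CPM, and 200M libraries 59.6, 9.13, 15.5 and 16.1 CPM. Every 200M library was above every WT library, and replicate 1 was far above the other 3. Lrat rose by 3.65 on the log2 scale (SE 0.64, adjusted p = 0.00605), and by 2.80 (SE 0.43, adjusted p = 0.000430) without 200M replicate 1. Leaving out WT replicate 1, 2 or 3 moved the adjusted p to 0.0743, 0.0946 and 0.0719. The 200H libraries ranged from 6.42 to 13.2 CPM.

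Tshb (ENSMUSG00000027857, chr3:102775465-102782718, minus strand) encodes the beta subunit of thyroid-stimulating hormone. It had 1, 0, 0 and 3 counts in WT, or 0.265, 0, 0 and 0.642 CPM, and 71, 16, 16 and 18 counts in 200M, or 19.8, 4.06, 4.68 and 3.37 CPM. The groups did not overlap, and replicate 1 again exceeded the other 200M libraries. Tshb rose by 4.97 on the log2 scale (SE 1.15, adjusted p = 0.00642), and by 4.01 (SE 0.86, adjusted p = 0.00211) without 200M replicate 1. Its 95% interval ran from 6.10-fold to 162-fold, with 4 counts over the WT libraries. The call was lost without WT replicate 1, 2 or 3 (adjusted p of 0.0743, 0.0946 and 0.0857). In the 200H libraries Tshb was 0, 5.06, 1.53 and 1.74 CPM, overlapping WT, and it was not tested in the 200H comparison.

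Cga, the alpha subunit that pairs with Tshb, averaged 4.01 CPM in WT and 9.51 CPM in 200M, reaching 19.5 CPM in 200M replicate 1 (log2 fold change 1.25, SE 0.45, adjusted p = 0.811). Without that library the Cga difference was 0.65 on the log2 scale, with an interval of -0.16 to 1.47. With no filter on low counts Cga was called, in a fit with far smaller adjusted p (2.59e-22 for Prl, against 0.00605 with the filter). Gh, growth hormone, averaged 4.04 and 1.97 CPM (log2 fold change -1.03, SE 0.48, adjusted p = 0.871). The summed level of 12 anterior pituitary markers was 37.2 to 65.5 CPM in WT and 38.2 to 65.2 CPM in 200M. Without the hormone genes Prl, Tshb, Cga and Gh, the other 8 summed to 24.4 to 32.1 CPM in WT and 21.0 to 31.9 CPM in 200M. Among them Gnrhr had 2 counts, and Pou1f1 and Fshb 5 each over all 8 libraries, and none of the 12 was at 0 in all 8. In bulk tissue fewer cells of a type and less RNA per cell cannot be told apart, and the part of pituitary tissue in the Prl and Tshb values was not tested. In older hypothalamus the same comparison called a single gene with edgeR, Gh, which rose by 5.05 on the log2 scale (adjusted p = 0.00296). Prl was higher there by 3.62 on that scale (SE 0.66, adjusted p = 0.0980), at a mean of 0.635 CPM in WT and 8.09 CPM in 200M. Both older differences were opposite in direction to those in the young hypothalamus.

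The 5 raised genes of smallest p among those averaging 50 counts or more were Lrat, Tac2, Dio2, Fzd5 and Chga, and none but Lrat was called in this fit. With no filter on low counts all 5 were called, and with libraries blocked by replicate number Lrat, Dio2 and Fzd5 were. The unfiltered edgeR fit gave Lrat an adjusted p of 1.04e-40, against 0.00605 with the filter. DESeq2, on as many genes (32313), called none, so calls of the unfiltered fit rest on that fit alone unless another is named. Dio2, the deiodinase that activates thyroid hormone and marks tanycytes, stood at 25.4, 28.2, 17.7 and 21.8 CPM in WT libraries and at 98.1, 32.5, 45.0 and 34.1 CPM in 200M libraries. The groups did not overlap (log2 fold change 1.16, SE 0.25, adjusted p = 0.318), and the difference was 0.67 (SE 0.15, adjusted p = 0.115) without 200M replicate 1. The other 7 markers of tanycytes and ependyma summed to 49.8 to 61.9 CPM in WT, 73.8 CPM in 200M replicate 1 and 43.6 to 60.3 CPM in the other 200M libraries. Fzd5, a Wnt receptor, ranged over 16.2 to 24.2 CPM in WT libraries and 24.1 to 63.0 CPM in 200M libraries, with replicate 1 the highest. Its log2 fold change was 0.94 (SE 0.21, adjusted p = 0.318), and 0.66 (SE 0.17, adjusted p = 0.242) without 200M replicate 1. Fzd5 was called without 200M replicate 2 (adjusted p = 0.0235). Chga, a granin of secretory vesicles, lay at 23.6 to 39.3 CPM in WT libraries and at 39.5 to 60.5 CPM in 200M libraries (log2 fold change 0.65, SE 0.15, adjusted p = 0.421). Every 200M library was above every WT library for 266 of all genes tested (1.77%).

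The 5 lowered genes of smallest p at that count were Gm10800, A230006K03Rik, Cxxc5, Alg11 and mt-Rnr1. None was called. A230006K03Rik, a long noncoding RNA, lay at 47.1 to 49.4 CPM in WT libraries and, without overlap, at 31.4 to 39.3 CPM in 200M libraries (log2 fold change -0.43, SE 0.11, adjusted p = 0.640). Alg11, a mannosyltransferase of N-glycan assembly, lay at 102 to 108 CPM in WT libraries and 78.3 to 92.1 CPM in 200M libraries (log2 fold change -0.30, SE 0.08, adjusted p = 0.811). Cxxc5, a CXXC zinc-finger protein, was at 74.4 to 86.7 and 55.8 to 69.5 CPM (log2 fold change -0.36, SE 0.10). The mitochondrial 12S ribosomal RNA mt-Rnr1 lay at 91.4 to 178 CPM in WT libraries and 47.1 to 114 CPM in 200M libraries (log2 fold change -0.70, SE 0.20), and the predicted gene Gm10800 lay at 121 to 203 and 82.7 to 143 CPM (log2 fold change -0.59, SE 0.14). Without 200M replicate 1 both were called, mt-Rnr1 at -0.997 on the log2 scale (adjusted p = 0.000430) and Gm10800 at -0.65 (adjusted p = 0.0355). Gm10800 was also called without WT replicate 4 or 200M replicate 3 (adjusted p of 0.0363 and 0.0458). Both mt-Rnr1 and Gm10800 were called with no filter on low counts and with libraries blocked by replicate number. These libraries were depleted of ribosomal RNA, and the part of that step in the mt-Rnr1 value was not tested.

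In the GnRH network no gene was called after the filter on low counts; with no filter, Tac2 was. Of 24 listed genes 20 were tested, 0 were called by edgeR, DESeq2 or limma voom, and 3 (15.0%, against 5.65% of all genes) had an unadjusted p under 0.05, all higher in 200M. Gnrh1 itself was too low to test, with 0.749 to 2.92 CPM over the 8 libraries, and Kiss1, the kisspeptin gene, had 18 counts in all. Tac2 (chr10:127724478-127731768), which encodes neurokinin B, stood at 21.2, 23.7, 27.0 and 21.0 CPM in WT libraries and at 52.1, 36.5, 33.0 and 34.1 CPM in 200M. All 200M libraries were above all WT libraries. Its log2 fold change was 0.74 (SE 0.15, adjusted p = 0.184), and 0.58 (SE 0.14, adjusted p = 0.196) without 200M replicate 1. Tac2 was called without 200M replicate 3 (adjusted p = 0.0413), and its adjusted p ran up to 0.832 with another library left out. Esr1, estrogen receptor alpha, stood at 27.3, 28.4, 31.8 and 28.5 CPM in WT libraries and at 60.2, 38.1, 37.7 and 33.9 CPM in 200M, again without overlap (log2 fold change 0.54, SE 0.15, adjusted p = 0.811), with 0.33 (SE 0.13) left without 200M replicate 1. Pdyn, the dynorphin precursor, had 36.4 to 42.4 CPM in WT, 88.6 CPM in 200M replicate 1 and 42.6 to 46.2 CPM in the other 3, and its log2 fold change went from 0.49 (SE 0.17) to 0.18 without that library.

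Of the network's receptors, Pgr, the progesterone receptor, averaged 153 CPM in WT and 139 CPM in 200M, with an interval of -0.37 to 0.09 on the log2 scale. Without 200M replicate 1, the highest at 188 CPM, the interval was -0.49 to -0.16 (adjusted p = 0.255). Prlr, the prolactin receptor, averaged 135 and 142 CPM, with an interval of -0.16 to 0.29. For Tacr3, the neurokinin B receptor, the interval was -0.46 to 0.39. Kiss1r, the kisspeptin receptor, averaged 4.70 and 3.92 CPM and was measured loosely, with an interval of -0.96 to 0.54. Of the 15 network genes averaging 50 counts or more, 14 had an interval that stayed within 2-fold of WT and 10 within 1.5-fold. Tac2 was the exception at 2-fold, its interval reaching 2.08-fold.

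No neurosecretory peptide was called by edgeR after the filter on low counts; with no filter, Cck and the dopamine transporter gene Slc6a3 were. In the list of 16 hypophysiotropic and magnocellular genes, 14 were tested and 3 (21.4%, against 5.65% of all genes) had an unadjusted p under 0.05, each higher in 200M: Cck (log2 fold change 0.76), Avp and Sst. Avp, vasopressin, averaged 43.0 CPM in WT and 56.8 CPM in 200M, where replicate 1 reached 85.5 CPM (log2 fold change 0.40, SE 0.17, adjusted p = 0.865). Without that library the Avp difference was 0.15, with an interval of -0.11 to 0.41. Sst, somatostatin, averaged 44.4 and 53.9 CPM (log2 fold change 0.28, SE 0.12). Oxt, oxytocin, averaged 27.0 and 29.7 CPM, with an interval of -0.23 to 0.50. Th, the rate-limiting enzyme of dopamine synthesis, had a log2 fold change of 0.24 (SE 0.24), and Ghrh, growth hormone-releasing hormone, one of 0.45 (SE 0.34). Crh was too low to test. The list median was 0.19, against 0.00019 over all genes.

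In the 17 feeding, arousal and circadian genes 14 were tested, none was called by edgeR, and the median was -0.08. Cartpt, which encodes a satiety peptide, lay at 24.9 to 29.1 CPM in WT libraries and 29.5 to 36.5 CPM in 200M libraries (log2 fold change 0.26, SE 0.13, adjusted p = 0.871). Agrp was too low to test, and Pomc, the melanocortin precursor, averaged 6.46 and 5.75 CPM (log2 fold change -0.16, SE 0.35). Bdnf, a neurotrophin, was the list's other gene with an unadjusted p under 0.05, at a log2 fold change of -0.30.

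**Figure D2:**
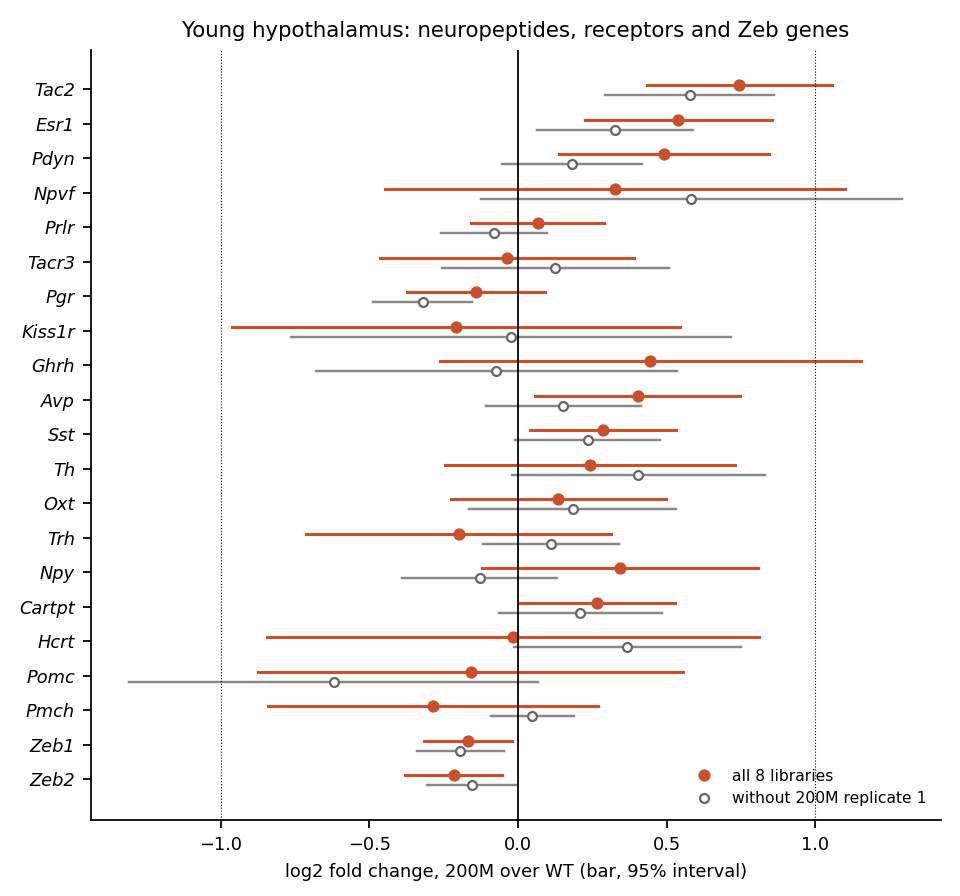
Log2 fold change of 200M over WT with its 95% interval for neuropeptide, receptor and Zeb genes, from all 8 libraries (red) and without 200M replicate 1 (grey). Tac2 lay at 0.74 and Zeb1 at -0.17, and the intervals of Hcrt, Pmch, Trh and Npy were wide with that library and narrower without it.

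The peptides also showed how 200M replicate 1 differed. Hcrt, the orexin precursor of the lateral hypothalamus, was 0.279 CPM in that library and 25.8 to 34.5 CPM in the other 3 200M libraries, against 12.4 to 32.7 CPM in WT libraries. Pmch, melanin-concentrating hormone from the same region, was 50.7 CPM there, 290.3 to 342 CPM in the other 3 and 291 to 317 CPM in WT. Trh, thyrotropin-releasing hormone, was 10.9 CPM there and 44.0 to 60.3 CPM in all WT libraries. Npy, a peptide of arcuate neurons, was 111 CPM there and 42.1 to 43.4 CPM in the other 200M libraries. Oligodendrocyte markers summed to 1571 CPM in that library, against 2945 to 3201 CPM in the other 200M libraries and 2751 to 3205 CPM in WT. Without it, the log2 fold change was 0.37 for Hcrt and 0.11 for Trh. Likewise, Pmch had a log2 fold change of 0.05 with an interval of -0.09 to 0.19 and Npy one of -0.13 with an interval of -0.39 to 0.13. The part of dissection in these values was not tested.

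**Figure D3:**
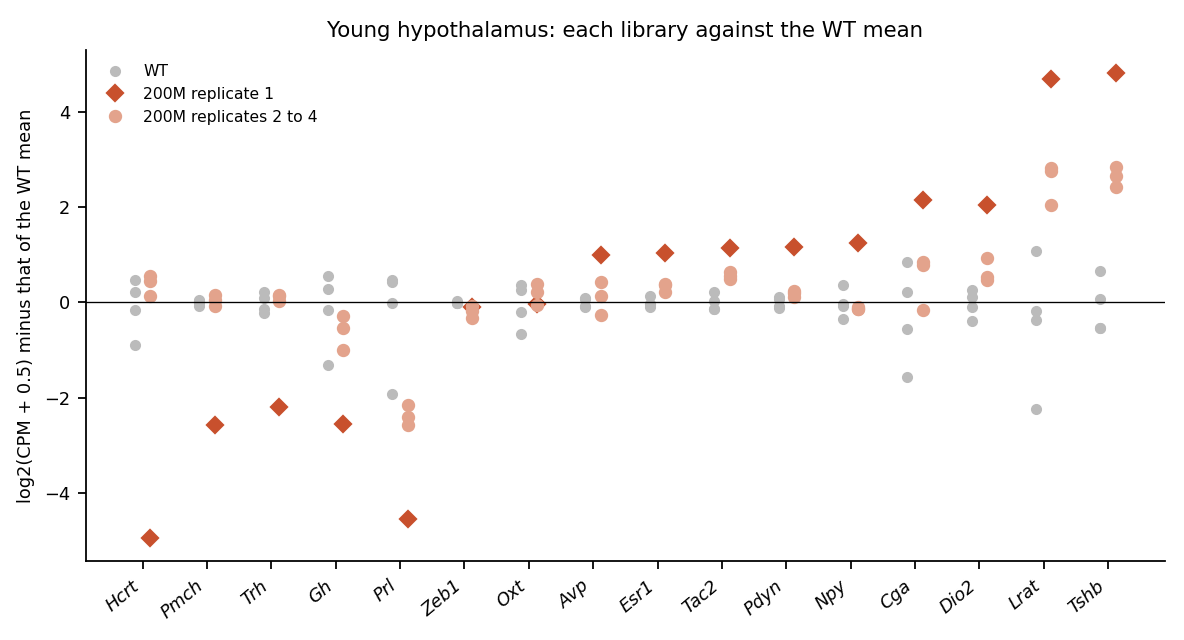
Log2(CPM + 0.5) of each library minus that of the WT mean for 16 genes (grey, WT; dark diamond, 200M replicate 1; light points, 200M replicates 2 to 4). The diamond lay far below the other points for Hcrt, Pmch and Trh and far above them for Npy, Pdyn, Lrat and Tshb, while for Prl, Lrat and Tshb the other 3 200M libraries also lay on its side of the WT mean.

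How small a change the data could still hold was read from each gene's 95% interval, as the end farthest from no change. Of the 9538 well expressed genes, with 50 or more counts on average, 9526 (99.9%) had an interval that stayed within 2-fold of WT, 8719 (91.4%) within 1.5-fold and 2409 (25.3%) within 1.2-fold. The median half-width was 0.25 on the log2 scale and the median outer end 1.27-fold. In equivalence tests adjusted over all genes tested, 9530 of these genes passed at 2-fold, 8894 (93.2%) at 1.5-fold and 0 at 1.2-fold.

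The bound went with depth. In the 5274 genes with a mean of 50 to 200 counts the median outer end was 1.35-fold, and 84.8% were held within 1.5-fold. In the 3594 genes with 200 to 1000 counts it was 1.2-fold, with 99.6% within 1.5-fold and 49.1% within 1.2-fold. In the 670 genes with 1000 or more it was 1.16-fold, with 75.8% within 1.2-fold. Below the limit, 5367 genes with a mean of 10 to 50 counts had a median outer end of 1.74-fold, and 14.8% were within 1.5-fold, so for most of them the interval still held a change of that size. The same count of well expressed genes within 1.5-fold was 8482 without 200M replicate 1.

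Among the genes measured most tightly were Malat1, a nuclear noncoding RNA (interval -0.15 to 0.06 on the log2 scale), Map1b, a microtubule-associated protein (-0.10 to 0.13), the G protein alpha subunit gene Gnas (-0.20 to 0.03) and the ubiquitin ligase gene Ttc3 (-0.13 to 0.10). At the other end, 12 well expressed genes were not held within 2-fold: Lrat, Dio2, Fndc3c1, Fzd5, Cck, Snora73b, mt-Rnr1, Islr, Tac2, Gm44243, Pgp and Mpzl2.

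**Figure D4:**
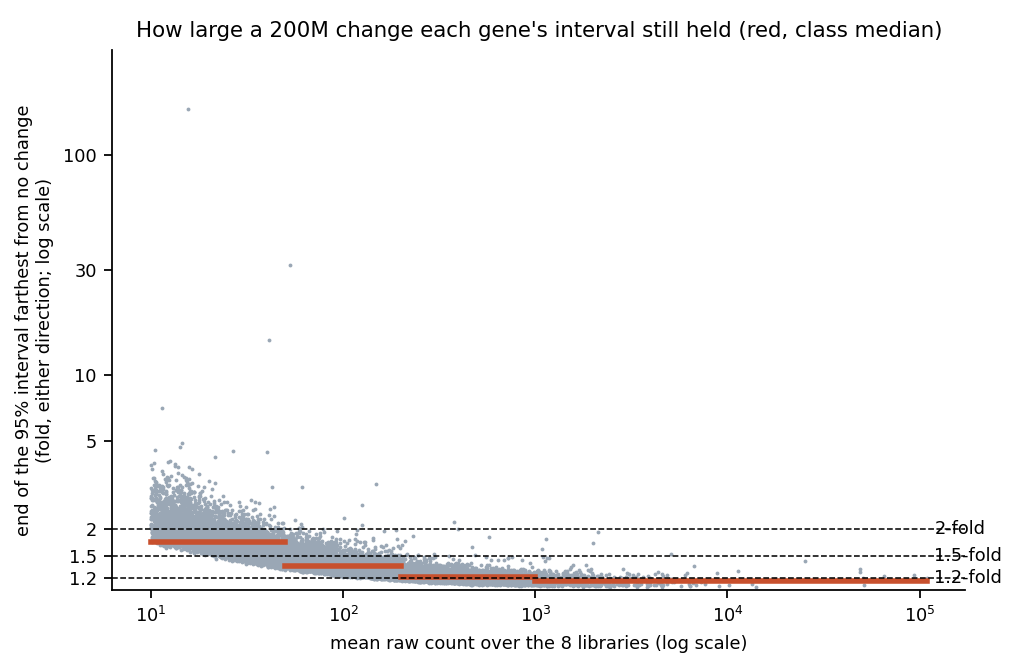
Outer end of the 95% interval of the 200M over WT fold change (fold in either direction, log scale) against mean raw count (log scale) for genes averaging 10 counts or more; red bars are medians of 1.74, 1.35, 1.2 and 1.16-fold in 4 classes of count. The cloud narrowed with count and lay almost wholly below the 2-fold line from 50 counts upward; the highest points, Tshb and Lrat, reached 162 and 31.7-fold.

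Lists of neuronal genes differed in how tightly they were held. All 34 synaptic and neuronal genes averaging 50 counts or more were held within 1.5-fold, with a list median of -0.03. Of the 35 tested, 4 (11.4%, against 5.65% of all genes) had an unadjusted p under 0.05, all lower in 200M: Gria2, a glutamate receptor subunit (log2 fold change -0.18), Nrsn1, Vamp2 and Elavl2. The 17 well expressed circadian clock genes of 18 tested were all within 1.5-fold and none of the 18 had an unadjusted p under 0.05; their log2 fold changes ran from -0.09 (Rora) to 0.18 (Per3). Of 20 hypothalamic regional transcription factors 18 were tested, with a median of 0.03, and 9 of the 10 well expressed were within 1.5-fold; only Sim1, a factor of the paraventricular nucleus, had an unadjusted p under 0.05 (log2 fold change -0.25). Of 20 immediate early genes 15 were tested, and 4 of the 7 that were well expressed were within 1.5-fold. Junb (0.94) and Klf2 (0.55) had an unadjusted p under 0.05 with adjusted p of 0.824 and 0.871. None of these genes was called by edgeR after the filter on low counts.

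Most genes that 200M changed in the pituitary did not show the same change in the hypothalamus. In the young pituitary 3913 of 18199 genes (21.5%) were called, and 3363 of them could be tested in the hypothalamus. Of these, 2 were called here, Prl and Lrat, each in the same direction in both tissues. In the pituitary Prl fell by 1.61 on the log2 scale (adjusted p = 2.86e-07), from a mean of 137500 CPM in WT to 46294 CPM in 200M. Lrat rose there by 2.00 (SE 0.73, adjusted p = 0.0446). Of the 3363 genes, 245 (7.29%) had an unadjusted p under 0.05 in the hypothalamus, against 5.65% of all genes. Of these 245, 99 went in the direction of the pituitary change: 66 of the 158 raised there and 33 of the 87 lowered there. For the 1957 genes raised in the pituitary the median log2 fold change was 0.58 there and -0.01 in the hypothalamus. For the 1406 lowered in the pituitary it was -0.44 there and 0.03 in the hypothalamus. The sign was the same in both tissues for 1511 of the 3363 (44.9%). Of the 2620 with a mean of at least 50 counts, 2283 (87.1%) had a hypothalamic interval that did not hold the pituitary value. That share is descriptive, since the genes were chosen by their pituitary change and the pituitary value was taken without its own error.

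Several genes with small pituitary p show the contrast. Nrsn2, a neuronal vesicle protein, rose by 3.23 on the log2 scale in the pituitary (SE 0.11, adjusted p = 6.90e-11) and averaged 391 CPM in WT and 420.3 CPM in 200M hypothalamus, an interval of -0.03 to 0.24. Peg10, an imprinted gene, rose by 1.69 in the pituitary and had an interval of -0.20 to 0.16 here. Trank1 rose by 3.83 there, with an interval of -0.07 to 0.20 here. Among lowered genes, Tmc4 fell by 2.86 in the pituitary and had an interval of -0.31 to 0.39 here. These 4 are among the 10 raised and 10 lowered genes of smallest pituitary p that were well expressed in the hypothalamus, and all 20 had a hypothalamic adjusted p of 0.871 or more. Directly tested, the 200M effect differed between the tissues for 1872 of 17789 genes (10.5%), being higher in the pituitary for 1177 and lower for 688, with 7 lacking a finite estimate.

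**Figure D5:**
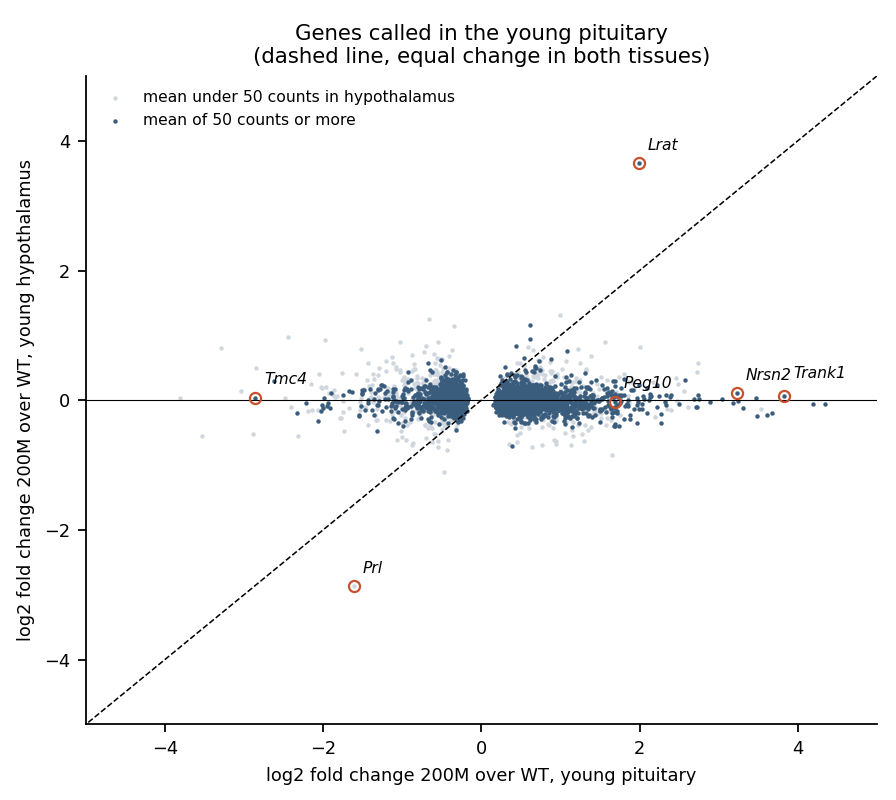
Log2 fold change of 200M over WT in the hypothalamus against that in the pituitary for 3362 genes called in the young pituitary (dark, mean of at least 50 counts in the hypothalamus); 1 further gene had no finite pituitary estimate. The points lay along the horizontal line, with medians of -0.01 and 0.03 in the hypothalamus, and Prl and Lrat were the 2 that were called here too.

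In the hypothalamus of older females, whose libraries were made with a poly(A) kit and counted with another annotation, edgeR called 1 of 16067 genes (0.00622%), with 2904 (18.1%) below an unadjusted p of 0.05. In the same libraries DESeq2 called 632 of 12361 genes (5.11%). Of the 632, 624 were tested in the young hypothalamus, none was called there by edgeR and 38 (6.09%) had an unadjusted p under 0.05. Well expressed genes were 567, and for 533 of them the young interval did not hold the older value. By direction, it was 487 of 494 (98.6%) for genes lowered in older 200M and 46 of 73 (63.0%) for genes raised there. These shares too are descriptive, since the genes were chosen by their older change and the older value was taken without its own error. Of the raised genes, 83 of 124 (66.9%) had the same sign in the young hypothalamus, and of the lowered genes 255 of 500 (51.0%). Whether the raised and lowered genes differ beyond chance was not tested. Age, breeding history and library kit differ together between the cohorts and cannot be told apart.

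Predicted targets of the microRNAs were examined from the annotated 3′ UTRs of 21039 genes. Leaving out Zeb1, 707 genes had a CAGTATTA site and 577 of them were tested; 8 were higher and 21 lower in 200M at an unadjusted p under 0.05 (5.03%, against 5.65% of all genes) and none was called by edgeR. Their median log2 fold change was -0.03, and 363 (62.9%) were below 0, against 49.9% of all genes. Of 845 genes with a CAGTGTTA site 688 were tested, with a median of -0.04 and 425 (61.8%) below 0. The share of genes below 0 also went with UTR length. With tested genes split into 4 equal classes of 3′ UTR length, it was 36.7% in the shortest class and 59.5% in the longest. Within every class it was higher for genes with a CAGTATTA site than for those without. From shortest to longest the shares were 44.0 and 36.7%, 51.2 and 44.4%, 63.3 and 50.5%, and 67.5 and 58.7%. The shortest class held 25 genes with a site. The part of UTR length in these medians was not tested, and a site here is only a match of letters. Well expressed genes with a CAGTATTA site were held within 2-fold in all 488 cases and within 1.5-fold in 469.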

How the data were processed

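The authors aligned reads to mm10 with STAR 2.7.1a and counted reads per gene, by strand, of the GENCODE M25 basic annotation with featureCounts for the young cohort; the older hypothalamus libraries were unstranded and counted with HTSeq 0.9.1. The deposited tables hold raw counts per gene, which were used as deposited; their columns of normalized values, fold changes and p-values were not used. Genes were tested anew with edgeR 4.0.16 in R 4.3.3 (filterByExpr, TMM, quasi-likelihood F test, Benjamini-Hochberg over all genes tested, threshold 0.05), 4 WT against 4 200M libraries with no covariate. Standard errors came from the negative binomial weights and the posterior quasi-dispersion, and 95% intervals from the t distribution at 23.8 degrees of freedom. Both were tested on simulated data with the same dispersion in both genotypes. The biological coefficient of variation was 0.0593 in WT and 0.118 in 200M, and coverage of the intervals at unequal spread was not tested. DESeq2 1.42.0 and limma 3.58.1 were alternatives. Gene positions and 3′ UTRs are from GENCODE M21 on GRCm38, the same assembly.

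Named genes were 38 chosen genes of the Zeb1 loop, the GnRH network and hypothalamic and pituitary peptides, every called gene, the 5 raised and 5 lowered genes of smallest p and the 5 narrowest intervals. These genes and all lists were chosen with earlier results of these data known, and other genes named as members of a list were chosen after their values were seen. Replicates are biological by the study's methods. No pair of libraries of 1 genotype was alike within sampling noise, with chi-square per degree of freedom of 1.87 to 6.6. The pituitary fit used 7 libraries of 7560888 to 13342430 counts and the older hypothalamus 7 of 10627465 to 13917738. Some genes are not reported here.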

Additional observations from a re-analysis of the deposited data

Results flagged for a closer look

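For the named genes, 97 groups of 4 libraries were checked for a library far from the other 3, and 12 groups held one; about 1 group in 20 does so by chance. 6 of them were 200M replicate 1, where Lrat was 59.6 CPM (others 9.13 to 16.1), Tshb 19.8, Pdyn 88.6, Esr1 60.2 and Npy 111 CPM, all high, and Trh 10.9 CPM, low. In WT replicate 1, Zeb2 was 254 CPM, Cdh1 17.0 CPM and mt-Rnr1 178 CPM, each above the other WT libraries, and Sst was 37.1 CPM, below them. In 200M replicate 3, Gnrh1 was 2.92 CPM and Agrp 2.05 CPM, both above the others at 10 and 7 counts.

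The 200M effect differed between young pituitary and hypothalamus for 13 named genes by the tissue-by-genotype term (adjusted p from 5.11e-16 to 0.0310). On the log2 scale, pituitary minus hypothalamus, the difference was 0.69 for Zeb1, 3.13 for Nrsn2, 1.71 for Peg10, 0.62 for Prlr, 0.41 for Cxxc5, 1.09 for mt-Rnr1, 0.34 for Gnas and 0.27 for Ttc3. It was -4.58 for Tshb, -1.90 for Cga, -0.59 for Esr1, -2.18 for Tacr3 and -2.92 for Epcam. Epcam had 25 counts over the 8 hypothalamus libraries.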

How the results depend on the processing

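The count of called genes, 3 with edgeR, depended on the fit more than any other value. It was 30 with no filter on low counts, where edgeR gave Prl, Lrat and Tshb adjusted p of 2.59e-22, 1.04e-40 and 6.75e-16. The count was 0 with a robust quasi-dispersion (848 genes at an unadjusted p under 0.05), 0 with DESeq2 (654) and 1 with limma voom (913). It was 1 with limma voom and sample quality weights, which was added after the data were seen. Leaving out a library gave 0 to 10 calls. The count was 0 without WT replicate 1 or 3 (638 and 698 at an unadjusted p under 0.05), 1 without WT replicate 2 and 5 without WT replicate 4. Without 200M replicates 1, 2, 3 and 4 in turn it was 8, 4, 10 and 3. The cause was not tested. With a replicate block, which paired WT and 200M libraries by number, 11 genes were called, among them Dio2 and Fzd5. Deviations of same-numbered libraries correlated at 0.05, -0.00039, 0.06 and 0.22, and WT replicate 2 correlated better with 200M replicate 1 (0.07). The labels do not say whether a shared number means a pair. With pituitary and hypothalamus libraries blocked by genotype and number, the tissue difference fell from 1872 to 947 genes. That fit left out WT hypothalamus replicates 3 and 4 and the pituitary WT library that matched no sample number. Zeb1 stayed below 0 and short of the threshold in all 17 alternatives (-0.20 to -0.12 with a library left out), and the genes held within 1.5-fold numbered 8209 to 8852. With a library left out, 13 named genes changed sign: Cdh1 (-0.51 to 0.13), Kiss1r (-0.67 to 0.0067), Tacr3 (-0.25 to 0.13), Prlr (-0.081 to 0.16), Oxt (-0.029 to 0.28), Trh (-0.36 to 0.11), Ghrh (-0.073 to 0.74), Pomc (-0.62 to 0.057), Npy (-0.13 to 0.49), Hcrt (-0.26 to 0.37), Pmch (-0.46 to 0.048), Peg10 (-0.11 to 0.082) and Ttc3 (-0.030 to 0.00041). At 3460427 to 5143128 counts a library, genes such as Gnrh1, Kiss1, Crh and Agrp could not be tested.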

Other observations

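Cytosolic ribosomal protein genes, which encode the protein part of the ribosome, lay above 0 in 70 of 75 cases (93.3%, against 50.1% of all genes), with a median log2 fold change of 0.17 and of 0.22 without 200M replicate 1. None was called by edgeR after the filter on low counts (with no filter Rplp1 was), and 16 (21.3%, against 5.65% of all genes) had an unadjusted p under 0.05, all higher in 200M. Log2 fold changes ran from -0.14 for Rpl5 (SE 0.16) to 0.68 for Rpl36 (SE 0.25, adjusted p = 0.811). These genes have many near-identical pseudogenes that can share reads, so each value is uncertain. Of 4 equal classes of 3′ UTR length, the shortest had a median of 0.06, and its part in the ribosomal values was not tested.

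Markers of other cell types and regions were without a call by edgeR, after the filter on low counts, in every list but the anterior pituitary, whose called genes were Prl and Tshb. Markers of astrocytes (median 0.02), GABAergic neurons (-0.06), microglia (0.08), thalamus (-0.0081), striatum and preoptic border (-0.04), cortex and hippocampus (0.04), endothelial and mural cells (0.08) and tanycytes and ependyma (0.10) had medians near 0. Those of oligodendrocyte precursors (0.19), meninges (0.27), choroid plexus (0.26) and blood (0.29) were higher and those of oligodendrocytes (-0.18) lower, and without 200M replicate 1 the last was -0.0090, meninges -0.03, choroid plexus 0.03, blood 0.13 and oligodendrocyte precursors 0.25. The precursor markers summed to 195 to 222 CPM in WT, 219 CPM in 200M replicate 1 and 231 to 244 CPM in the other 200M libraries. Slc17a6, the vesicular transporter of hypothalamic glutamatergic neurons, differed by -0.16 on the log2 scale (SE 0.08, adjusted p = 0.871). It and Slc17a8 (-0.77, SE 0.39) were the 2 glutamatergic markers tested, with a median of -0.47, and Slc17a7, a marker of cortex, was too low to test.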
